A study of Mus musculus with 3 samples.

Results

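Hspa1a and Hspa1b, the paired mouse genes for the stress-inducible HSP70 chaperone, were followed in RNA of 2-cell mouse embryos, collected on embryonic day 1.5. They were taken by position on chromosome 17 of mm9, Hspa1a from 35106000 to 35109200 and Hspa1b from 35093300 to 35096300. They are 2 regions, read beside 908564 nuclear windows of 3 kb. There was 1 group of 3 litters, which the series calls wild type. A library holds the pooled embryos of 1 litter, and the labels do not give how many. The mothers were LSD1 FL/FL (a floxed allele of a histone demethylase gene) of mixed strain and negative for ZP3::Cre, a transgene driven by an oocyte promoter. The fathers were wild type, named CB6 in one label and C57/Bl6J in another. All 3 litters share this genotype, and the series holds no heat shock, inhibitor or other stage, so the data describe a level and its spread between litters. Markers of the 2-cell stage were not analysed here. Litters 1 to 3 had 34014013, 32431630 and 40474940 nuclear alignments of 72 bases.

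HSP70 proteins bind unfolded stretches of other proteins and help them fold, using ATP. Hspa1a and Hspa1b have no introns and lie in tandem on the minus strand, and the heat shock factor HSF1 switches them on by binding repeated GAA elements in their promoters. In the mouse embryo an HSP70 transcript is among the first made from the embryo's own genome, around the 2-cell stage, and is used as a sign of genome activation. Another gene, Hspa1l, lies beside Hspa1a on the opposite strand and encodes a related HSP70 of the male germ line.

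The transcripts differ little in their coding part and much in their ends, and this decides what an alignment can be assigned to. In the GENCODE M21 transcripts the coding sequences are 1926 bases in Hspa1a and 1929 in Hspa1b, with 8 substitutions, 3 gap bases and 99.4% identity. The 3′ untranslated parts are 810 bases in Hspa1a and 643 in Hspa1b, and 46.4% of their alignment columns are identical. The last bases of the coding sequence, up to the stop codon, are shown because they hold the gap, just before the part where the genes diverge. Capitals mark bases that differ or are missing in the other gene.
Hspa1a: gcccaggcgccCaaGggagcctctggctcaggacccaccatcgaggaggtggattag
Hspa1b: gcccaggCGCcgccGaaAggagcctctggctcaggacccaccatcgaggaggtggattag

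Farther upstream the genes read alike. The stretch of transcript bases 318 to 389 is shown because, at the placement of the transcripts used here, 1 alignment over it was counted at both genes in litter 1. The genes differ by 1 base there, in capitals. Places that agreed nearly as well span 60 bases, so whether that alignment covers the differing base is not certain.
Hspa1a: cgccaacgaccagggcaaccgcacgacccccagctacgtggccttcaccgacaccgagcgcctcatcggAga
Hspa1b: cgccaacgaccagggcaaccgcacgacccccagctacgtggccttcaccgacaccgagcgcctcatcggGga

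The promoters are alike as well. Over the 250 bases before the transcript start they differ at 3 bases, in capitals (RefSeq, GRCm38.p6, minus strand; Hspa1a is chr17:34972157-34972406 and Hspa1b is chr17:34959239-34959488 in that build, which is not the build of the coverage).
Hspa1a: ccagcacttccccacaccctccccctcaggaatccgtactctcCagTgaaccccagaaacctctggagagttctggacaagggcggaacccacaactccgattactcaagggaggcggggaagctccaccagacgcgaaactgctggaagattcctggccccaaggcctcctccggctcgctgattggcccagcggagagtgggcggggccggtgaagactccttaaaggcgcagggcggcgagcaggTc
Hspa1b: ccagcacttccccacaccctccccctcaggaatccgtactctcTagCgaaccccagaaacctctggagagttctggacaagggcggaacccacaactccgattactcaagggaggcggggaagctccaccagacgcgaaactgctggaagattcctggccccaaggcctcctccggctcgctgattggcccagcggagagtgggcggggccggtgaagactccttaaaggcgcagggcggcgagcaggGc
Each promoter, read with the first 50 transcribed bases, holds 1 match to GAANNTTC, a pair of facing GAA elements and its own reverse complement. This motif is in 7.86% of 32851 promoters of the same length. It starts 104 bases before the transcript start in both genes and lies in the same letters, cgaaactgctgGAAGATTCctggccccaag, with the match in capitals. TTCNNGAA, also its own reverse complement, had 0 matches in either gene and is in 8.52% of promoters. CCAAT, searched on both strands, had 1 match in each gene and is in 37.4% of promoters.

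Over the whole regions, Hspa1a was low and Hspa1b was moderate and uneven between litters. Hspa1a had 22, 24 and 14 alignments in litters 1 to 3. Hspa1b had 139, 70 and 310. Hspa1b was the higher gene in 3 of 3 litters, and litter 3, its highest, was the lowest for Hspa1a. As a density, Hspa1a had 0.202, 0.231 and 0.108 RPKM (alignments per kb per 1000000 nuclear alignments) in litters 1 to 3, a mean of 0.180 ± 0.0643 (SD, n = 3). Hspa1b had 1.36, 0.719 and 2.55 RPKM, a mean of 1.54 ± 0.930 (SD, n = 3). The reads were amplified and carry no molecular identifiers, so intervals and floors here cover counting error and nothing else. The 95% exact Poisson intervals were 0.127 to 0.306, 0.148 to 0.344 and 0.0591 to 0.181 RPKM for Hspa1a. For Hspa1b they were 1.14 to 1.61, 0.561 to 0.909 and 2.28 to 2.85 RPKM, so its litters differed by more than counting error while those of Hspa1a overlapped. Halving the counts that are equal at both genes gave means of 0.118 RPKM for Hspa1a and 1.48 for Hspa1b. These are libraries of whole embryos, so fewer embryos with the transcript and less transcript per embryo cannot be told apart.

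The genes differed in the 3′ untranslated part, and over most of the coding part they cannot be compared, since most alignments there were counted at both. The transcripts were placed on the coverage by the agreement of start counts with sequence, and the places that agreed nearly as well span 60 bases. By coverage of its bases, the 3′ untranslated part of Hspa1a had 0.327, 0.0486 and 0.0979 RPKM in litters 1 to 3, and that of Hspa1b had 5.76, 2.36 and 11.3 RPKM. The means were 0.158 ± 0.148 for Hspa1a and 6.48 ± 4.51 for Hspa1b (SD, n = 3), and the ranges of the 2 genes do not overlap. The coding parts, mostly counted at both genes, had 0.216 ± 0.139 RPKM in Hspa1a and 0.219 ± 0.104 in Hspa1b. The 5′ untranslated parts were covered in litter 3 only, with 0.428 RPKM in Hspa1a and 0.634 in Hspa1b. Start counts there were equal at both genes save at 2 positions, with 1 alignment in Hspa1a against 2 in Hspa1b, and 0 against 1. These 5′ values are therefore no separate levels of the genes. The 3′ untranslated part held 43.0% G and C in Hspa1a and 34.4% in Hspa1b, and both coding parts held more (65.3% in Hspa1b). The part of base composition in these levels was not tested.

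**Figure D1:**
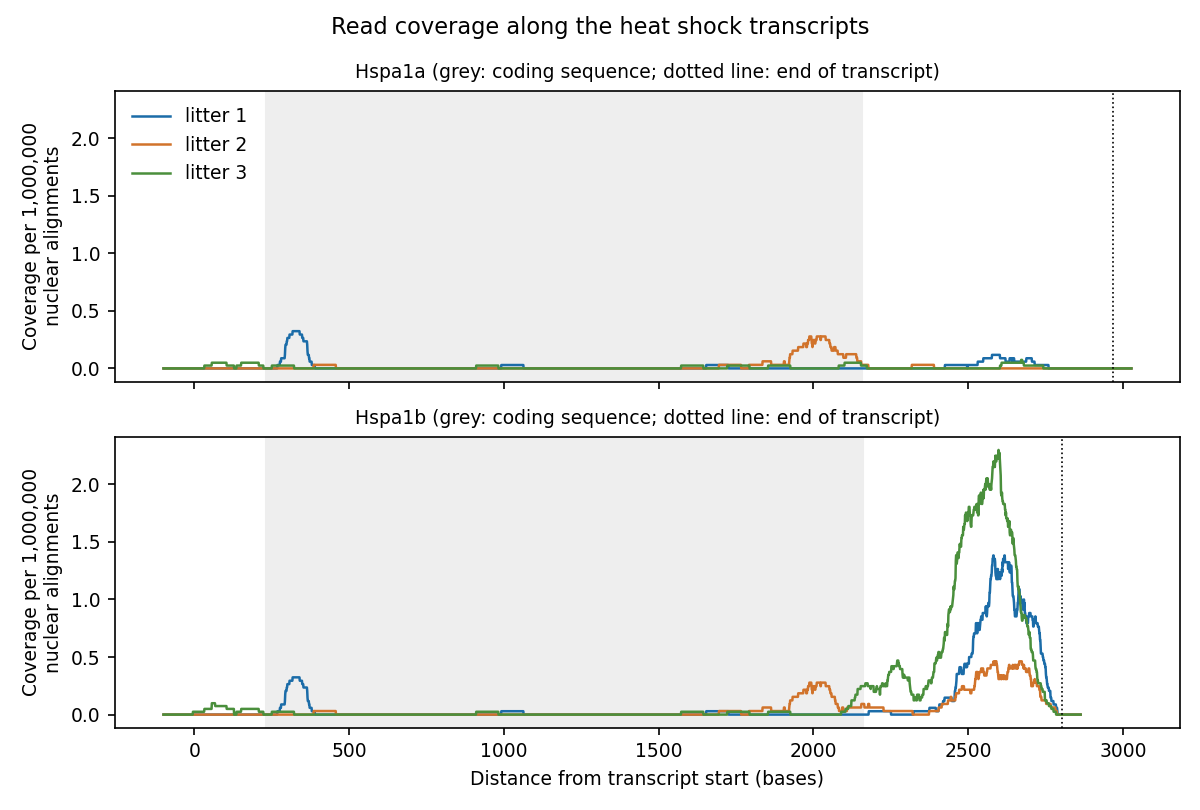
Coverage per 1000000 nuclear alignments (y axis) along the transcripts of Hspa1a (top) and Hspa1b (bottom), by distance from the transcript start in bases (x axis), 1 line per litter. The profiles repeat each other over most of the coding sequence, while a peak near the transcript's end, highest in litter 3 and lowest in litter 2, is seen in Hspa1b and not in Hspa1a.

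Alignments of Hspa1b piled up just before its annotated end. The left edges of its alignments had a median distance of 164, 219.5 and 223 bases from the transcript's 3′ end in litters 1 to 3, and the nearest lay 16, 18 and 21 bases from it. In the last 400 bases there were 124 of 139, 46 of 70 and 264 of 309 alignments in litters 1 to 3. Litter 2 was the most spread along the transcript, with an upper quartile at 718.5 bases, against 233 in litter 1 and 308 in litter 3. In litter 2, however, 19 of the 70 alignments lay where the genes are nearly alike and were also counted at Hspa1a. That upper quartile therefore includes alignments that cannot be assigned to Hspa1b. The same last 400 bases of Hspa1a held 8, 0 and 3 alignments.

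Most alignments over the coding sequence were counted at both genes. Those with their left edge in it numbered 13, 22 and 6 in Hspa1a and 13, 19 and 5 in Hspa1b in litters 1 to 3. The best match between the regions, found on litter 1, was a shift of 12918 bases in the same orientation, which equals the spacing of the annotated transcript starts. At that shift the start counts were equal at 13 of 108 positions in litter 1, 19 of 73 in litter 2 (26.0%) and 8 of 212 in litter 3 (3.77%), where positions without a start in either region are left out. The mean was 13.9% ± 11.2 (SD, n = 3), and 7.91% without litter 2. At the next best match they were equal at 7 of 115 positions in litter 1 and at 0 in the other litters. Equal counts followed the sequence. Where the 72 bases differ by 0, counts were equal at 32 of 32 positions, and where they differ by 1, at 7 of 7. Where they differ by 2, they were equal at 0 of 2, and where they differ by more than 3, at 1 of 352 (positions summed over litters). The placement of the transcripts was chosen for this agreement, so these counts are a description and no test.

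**Figure D2:**
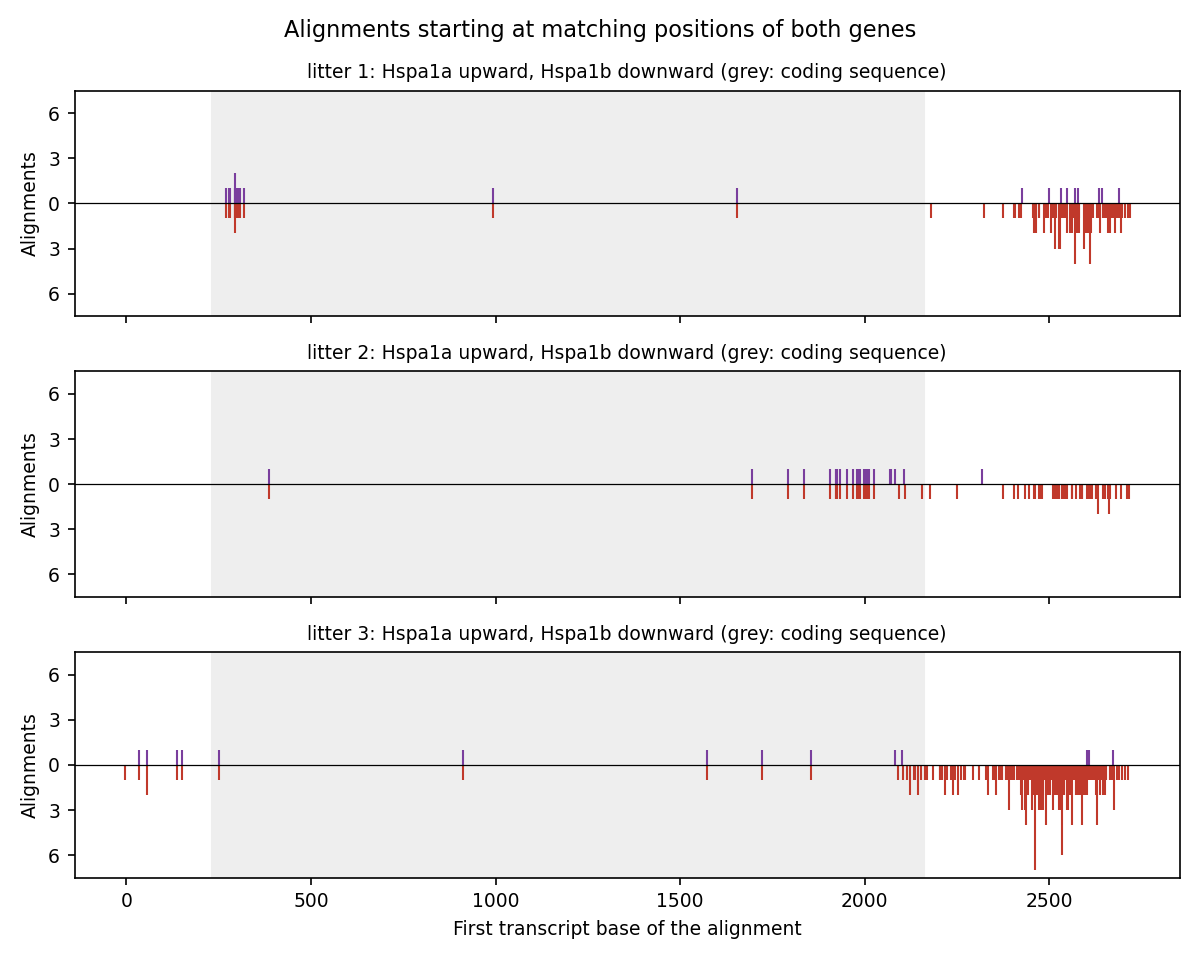
Alignments beginning at each transcript base (y axis, alignments; x axis, first transcript base), Hspa1a upward and Hspa1b downward, 1 panel per litter. Bars mirror each other over most of the coding sequence, and past it nearly all bars belong to Hspa1b.

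Own stretches, where the 72 bases of the genes differ by more than 3, gave a density for each gene apart from the other. That of Hspa1b holds the pile-up near the transcript's end, so its density does not stand for the whole transcript. Up to base 2245 of Hspa1a and base 2184 of Hspa1b, stretches also fit Gm20481 on the opposite strand, and the coverage carries no strand. Hspa1a had 9, 5 and 5 alignments over 852 start positions in litters 1 to 3, or 0.311, 0.181 and 0.145 RPKM. Hspa1b had 126, 51 and 299 over 688 start positions, or 5.38, 2.29 and 10.7 RPKM. Hspa1b was higher in every litter, and its lowest litter was above the highest of Hspa1a. The means were 0.212 ± 0.0871 RPKM for Hspa1a and 6.14 ± 4.28 for Hspa1b (SD, n = 3), and without litter 3 that of Hspa1b was 3.83. All 3 values of Hspa1a exceeded the 0.0870 to 0.109 RPKM that a count of 0 allows (3 alignments, counting error only), which is no comparison with local background. Their 95% exact Poisson intervals were 0.142 to 0.590, 0.0588 to 0.422 and 0.0471 to 0.338 RPKM in litters 1 to 3. Those of litters 2 and 3 reach below that floor. The level of Hspa1a was 0.0577, 0.0792 and 0.0135 times that of Hspa1b, a log2 difference of -4.10 ± 1.23 with a pseudocount of 0.1 RPKM, negative in 3 of 3 litters. By an exact sign-flip test over litters (a two-sided permutation test), p was 0.25, the smallest that 3 litters allow. With all alignments the log2 difference was -2.42 ± 1.19 (exact p = 0.25), which includes the alignments counted at both. By the rule of unequal counts in at least 2 litters, which picks positions by their values, 69 positions held 0.687 ± 0.899 RPKM in Hspa1a and 28.7 ± 14.5 in Hspa1b (SD, n = 3). With the positions chosen again without litter 1, 2 or 3, the means were 0, 1.32 and 0 RPKM in Hspa1a and 44.2, 41.7 and 37.5 in Hspa1b.

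The shared stretches, with at most 2 differing bases over 2042 start positions, were low at both genes. They held 13, 19 and 9 alignments at Hspa1a and 13, 19 and 10 at Hspa1b. As densities these are 0.187, 0.287 and 0.109 RPKM at Hspa1a, and 0.187, 0.287 and 0.121 RPKM at Hspa1b. Litter 2, the lowest in the own stretch of Hspa1b, was the highest here. Own alignments made up 40.9%, 20.8% and 35.7% of those of Hspa1a in litters 1 to 3, so most of its alignments lay in the shared stretches. They made up 90.6%, 72.9% and 96.8% of those of Hspa1b. The 95% exact Clopper-Pearson intervals were 20.7% to 63.6%, 7.13% to 42.2% and 12.8% to 64.9% for Hspa1a, which overlap. For Hspa1b they were 84.5% to 94.9%, 60.9% to 82.8% and 94.1% to 98.4%, and that of litter 2 does not meet the others. The own stretch of Hspa1b exceeded its shared stretch by 4.26, 2.62 and 5.62 on the log2 scale in litters 1 to 3, a mean of 4.17 (exact sign-flip p = 0.25). For Hspa1a the difference was 0.09 ± 0.50, positive in 2 of 3 litters (exact p = 0.75).

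The coding alignments of litter 1 were also counted at a place outside both genes. Of its 12 positions in the shared stretches with equal counts at Hspa1a and Hspa1b, all 12 had the same count at a mirrored place (the third place) upstream of Hspa1a, where the annotation sets Hspa1l on the opposite strand. That place was chosen on litter 1 for this agreement, as the best of a scan with 12 of 21 start positions of Hspa1a equal, against 7 of 21 at the next best, so the count for litter 1 restates the choice. In litter 2, which the scan did not use, it held for 1 of 19 positions and in litter 3 for 3 of 8. In the transcripts, 410 of 2896 stretches of 72 bases in Hspa1a and 375 of 2732 in Hspa1b fit Hspa1l with at most 2 differing bases. Such stretches were 11 of the 12 positions of litter 1, 0 of the 19 of litter 2 and 3 of the 8 of litter 3. All 3 of litter 3 had the same count at the third place, while litter 2 had no position of this kind to compare. The mirrored place as a whole, as long as the transcript from its start to the stop codon, held 47, 47 and 3 alignments in litters 1 to 3. Gm10501, in the opposite orientation, fits the same number of stretches. The coding alignments of litter 1 cannot be assigned to one of these genes. The left edges of 11 of them, on this strand the last transcript base of an alignment, lie in the first 386 coding bases. In litter 2, 17 of 19 coding alignments of Hspa1b had that edge at coding base 1545 or later. Past base 2184 of Hspa1b, or base 2245 of Hspa1a, no stretch fitted another annotated transcript within 2 differing bases, and unannotated genome was not searched. Hspa1a also overlaps Gm20481, annotated on the opposite strand, and the coverage carries no strand, so these cannot be told apart.

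**Figure D3:**
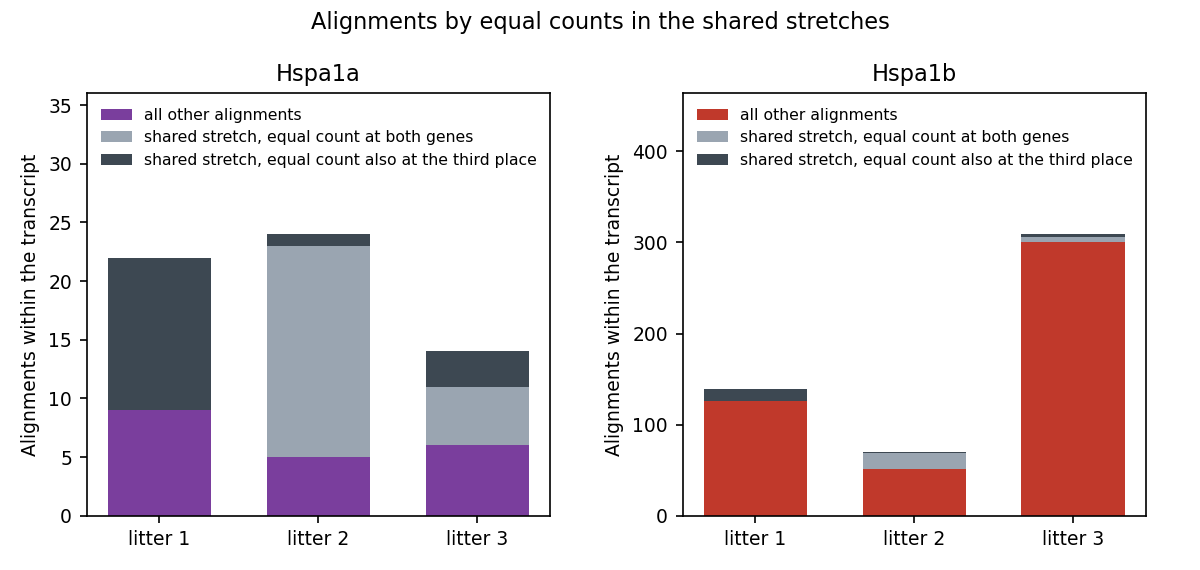
Alignments within the transcripts of Hspa1a (left) and Hspa1b (right) in each litter (y axis, alignments; the scales differ), split by whether they lie at a position of the shared stretches with the same count at the other gene, and also at the third place. All other alignments, 1 position of litter 1 with equal counts in the own stretches included, number 9, 5 and 6 in Hspa1a and 126, 51 and 301 in Hspa1b in litters 1 to 3.

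Sequence beside the genes was mostly quieter than the whole region of Hspa1b, with 1 exception. Hspa1a is set first against its own 5 kb on either side. The downstream flank of Hspa1a had 0.0294, 0.0308 and 0.00494 RPKM in litters 1 to 3, all below the gene, and its upstream flank, which reaches the mirrored place, had 0.288, 0 and 0.0198. In litter 1 that upstream flank was above Hspa1a itself. Hspa1a exceeded the mean of its flanks by 0.88 ± 0.65 on the log2 scale (exact p = 0.25) and its upstream flank alone by 0.72 ± 1.05, in 2 of 3 litters (exact p = 0.5). Hspa1b exceeded its upstream flank, at 0.417, 0.333 and 0.0445 RPKM, by 2.21 ± 1.75 on the log2 scale in 3 of 3 litters (exact p = 0.25).

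The downstream flank of Hspa1b was higher than the gene, at 34.4, 20.6 and 24.6 RPKM, and a peak of 433 bases from 35091164 to 35091596 held 98.3%, 97.2% and 98.8% of it. Against the mean of both flanks Hspa1b was lower in 3 of 3 litters, with a log2 difference of -3.17 ± 0.82 (exact p = 0.25). Without the peak, an alternative chosen after seeing the data, the log2 difference was 1.65 (exact p = 0.25), the other way. Of 142 positions in the peak with at least 5 alignments in each litter and 40 in all, 57 had the same 3 litter counts in a 2 kb stretch at 35.472 Mb of chromosome 17, 45 at 48.258 Mb of chromosome 9 and 42 at 71.25 Mb of chromosome 2. The annotation places a processed pseudogene, Gm8696, next after Hspa1b on this side, and of its 314 stretches of 72 bases, 199 fit Gm8741, 181 fit Snu13 (a gene for a small nuclear ribonucleoprotein), and 152 each fit Gm13642 and Gm5616, within 2 differing bases. Which of these the alignments came from was not tested. The rest of the flank had 0.631, 0.641 and 0.314 RPKM, below the whole region of Hspa1b in 3 of 3 litters. In litter 2 it lay within the 95% interval of Hspa1b, 0.561 to 0.909 RPKM. The coding part of Hspa1b, mostly counted at both genes, had 0.198, 0.332 and 0.126 RPKM, below the rest of the flank in each litter.

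**Figure D4:**
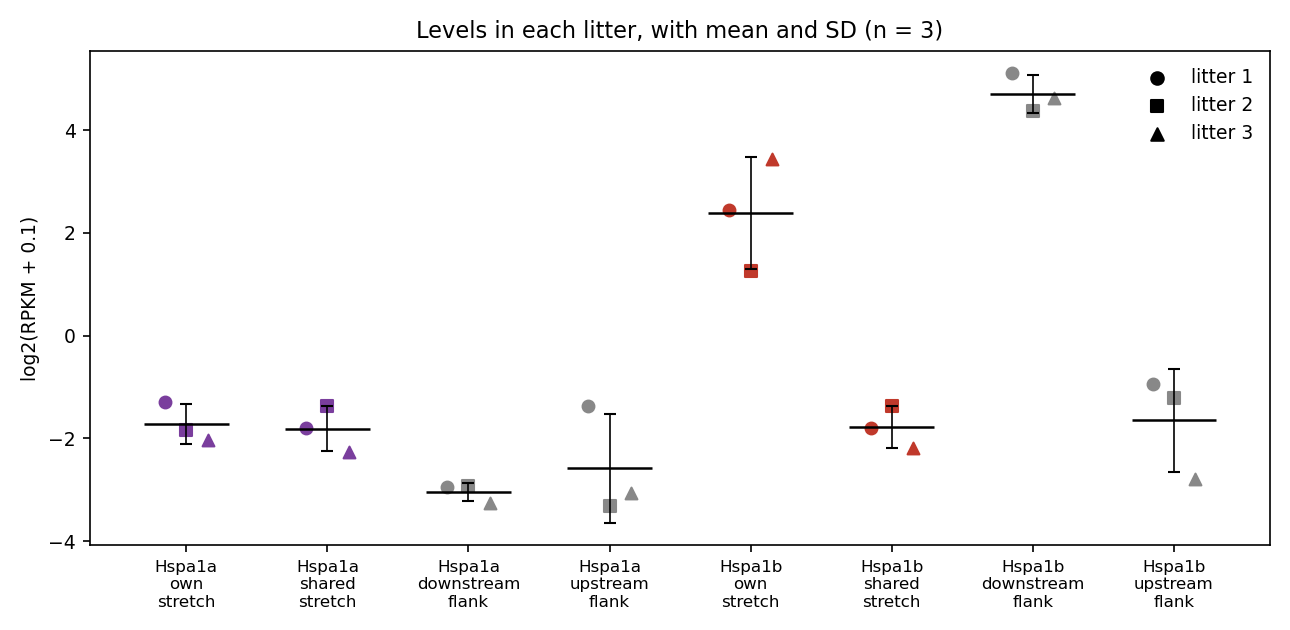
Level in each litter as log2(RPKM + 0.1) for the own and shared stretches of both genes and for the 5 kb flanks, with mean and SD over 3 litters. The own stretch of Hspa1b lies above every other item but its downstream flank, which holds the peak.

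Among 908564 windows of 3 kb, 91713 (10.1%) reached the mean of Hspa1a and 26587 (2.93%) that of Hspa1b. In 61.2% of windows no litter had an alignment, so both genes lie in the covered part of the genome. The mean of Hspa1a includes alignments also counted at Hspa1b. The own stretch of Hspa1a was reached by 85743 windows (9.44%) and that of Hspa1b by 8156 windows (0.898%). These stretches have 852 and 688 start positions, and that of Hspa1b holds the pile-up near the transcript's end. The windows are whole stretches of 3 kb, so the lengths are unlike. The coefficient of variation between litters was 35.7% for Hspa1a and 60.2% for Hspa1b. Windows of similar depth had a median of 123% beside Hspa1a (30429 windows) and 86.2% beside Hspa1b (16004 windows). The spread of Hspa1a was lower than in most of them and that of Hspa1b was within their middle range of 53.3% to 131%. Without litter 1, 2 or 3 the value of Hspa1a was 51.3%, 42.9% or 9.51%. It covers the whole region of Hspa1a, where most alignments were also counted at Hspa1b.

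Between litters, Hspa1b in litter 2 was 0.528 times litter 1, in litter 3 it was 1.87 times litter 1, and in litter 3 it was 3.55 times litter 2. Over its own stretch, Hspa1b in litter 2 was 0.425 times litter 1, in litter 3 it was 1.99 times litter 1, and in litter 3 it was 4.70 times litter 2. Hspa1b passed 2 fold in the last pair by either measure, and over its own stretch also between litters 2 and 1. Of 38035 windows averaging 100 alignments or more, 50.4%, 53.5% and 54.8% passed 2 fold in these pairs. With no such minimum, but with windows empty in all litters left out, the shares were 24.4%, 21.2% and 24.7% of 352210 windows. Hspa1a, with a mean of 20 alignments, is below that minimum. Its ratios were 1.14, 0.535 and 0.467 times in the same pairs over the whole region, where most of its alignments were also counted at Hspa1b. Over the own stretch of Hspa1a, with 5 to 9 alignments a litter, they were 0.583, 0.467 and 0.801, so the direction between litters 2 and 1 turned. Each litter is 1 library, and no test was made between them. Other heat shock genes were not analysed here, since no mm9 annotation was used.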

How the data were processed

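Per the labels' protocols, RNA of 3 litters was amplified with SPIA and the cDNA sheared before Illumina library construction. The submitters' processing notes name Bowtie and mm9. Version and settings: not given in the sources used here. Per the file headers, the deposited values are a bedGraph coverage track (signal per base) of a sorted alignment file. The values are whole numbers, with no scaling seen. From these the starts of ungapped 72-base alignments were recovered on all 33 nuclear sequences, with 0 negative starts, and the recovery was tested on simulated data. Strand is not kept. RPKM is alignments per kb of region or of start positions, per 1000000 nuclear alignments.

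The genes and lists were chosen with earlier results of these data known. GENCODE M21 transcripts and RefSeq promoters are of GRCm38, so transcripts were placed on the coverage at the start, among 401 tried, where start counts agreed best with sequence (392 of 393 pairs). Places within 3 pairs of the best span 60 bases. The own and shared stretches, the third place and the peak were defined after seeing the data. The named items were fixed as both genes and the 5 windows of 3 kb nearest to each in log2 RPKM over litters. A wider list of heat shock genes needed an mm9 annotation, which was not used here. The labels number the litters as separate ones. The p-values are from exact two-sided sign-flip permutation tests. Alternatives were the region, scaling, distinct starts, flanks, pseudocount, window size and leaving out each litter. Tools were Biopython 1.88, numba 0.67.0, scipy 1.17.1, pandas 2.3.3, numpy 2.4.6, matplotlib 3.10.9 and Python 3.11.15.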

Additional observations from a re-analysis of the deposited data

How the results depend on the processing

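Of the alternative values, 82 kept their direction or stayed within 1 SD (within 1.5 times for counts and for the spread), 10 moved and 1 reversed. Counting distinct start positions gave 0.590 RPKM for Hspa1a, 4.04 for Hspa1b, and 0.730 and 15.7 for their own stretches, because the scale then divides by distinct starts. Narrowing Hspa1b to its 304 best covered bases (over 0.1 of each litter's highest coverage) gave 11.7 RPKM, and -0.41 against its flanks. No base of Hspa1a met that limit, and equal counts could not be read at positions of 10 or more starts because at least 1 litter had none, so neither setting gave a value. Positions unequal in all 3 litters gave 0 RPKM in Hspa1a and 48.1 in Hspa1b, and leaving out a litter gave 0 to 1.32 and 37.5 to 44.2. With windows of 10 kb, 37966 windows reached Hspa1a and 10140 reached Hspa1b, of 272559. Leaving out a litter gave a spread of 9.51% to 51.3% for Hspa1a. Without the peak in its downstream flank, an alternative chosen after seeing the data, Hspa1b exceeded its flanks by 1.65 on the log2 scale, against -3.17 with it. With only the windows empty in all litters left out, 24.4%, 21.2% and 24.7% of windows passed 2 fold between litters 2 and 1, 3 and 1, and 3 and 2. Leaving out any litter kept Hspa1a below Hspa1b, at -4.60 to -3.41 on the log2 scale over own stretches. A pseudocount of 1 RPKM gave Hspa1a 0.15 over its flanks. No paired analysis was possible between sample groups because there is 1 group, and ratios within a litter were tested by sign flips. Depth limits Hspa1a, with 5 to 9 own alignments in a litter.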

Other observations

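The 5 windows of 3 kb whose levels over the 3 litters lay nearest to each gene are given by position on mm9, by Euclidean distance of log2(RPKM + 0.1), as a description of likeness over 3 litters only. For Hspa1a they begin at 45.19 Mb of chromosome 1, at 65.6, 70.38 and 15.37 Mb of chromosome 13 and at 109.16 Mb of chromosome 2, at distances of 0.0293 to 0.0710. For Hspa1b they begin at 56.2 and 56.27 Mb of chromosome 12, 10.57 Mb of chromosome 18, 107.66 Mb of chromosome 13 and 8.1 Mb of chromosome 15, at distances of 0.0798 to 0.148. The windows of chromosome 12 held the same 136, 66 and 312 alignments in litters 1 to 3. Within a distance of 0.25 there were 124 windows of the Hspa1a pattern and 30 of the Hspa1b pattern.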
